A study of Homo sapiens with 6 samples.

Results

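The growth factor genes examined were 10 of the 58735 genes in the table, chosen by name: HBEGF, AREG, EREG, TGFA and NRG1 of the epidermal growth factor (EGF) family, and VEGFA, VEGFC, FGF2, PDGFA and EDN1, which code for secreted factors that act on vessels and stroma. Each name occurred once in the table. RNA-seq was performed on U251 cells, an established human glioblastoma line. The NC group (n = 3) received sterile deionized water and the TNF-α group (n = 3) received recombinant human tumor necrosis factor-α, an inflammatory cytokine, at 10 ng/mL, in both cases for 24 h. Per the labels, the 3 libraries of a group were independent biological replicates. Only this single line, grown without other cells, and this single dose and time were compared, and neither group carried a transgene or a knockdown.

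EGF-family ligands are made as membrane-anchored precursors, are cut loose by surface proteases and bind receptors of the ErbB family, of which EGFR is frequently amplified or mutated in glioblastoma. VEGFA is the main growth factor of blood vessel endothelium, VEGFC that of lymphatic endothelium, FGF2 binds FGF receptors together with heparan sulfate, PDGFA binds the receptor PDGFRA, and EDN1 is the precursor of the vasoconstrictor peptide endothelin-1. Tumor necrosis factor-α acts largely through the transcription factor NF-kB.

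After TNF-α, HBEGF had the largest log2 fold change of the 8 genes tested and rose from a mean of 7.45 ± 0.526 to 40.0 ± 6.69 FPKM (SD, n = 3 each), a ratio of means of 5.36. VEGFC and PDGFA also rose, with ratios of means of 2.58 and 2.23. EDN1 (ratio 1.68) was higher in all 3 TNF-α libraries without passing the test over all genes, VEGFA (ratio 0.630) and FGF2 (ratio 0.506) were lower in all 3 without passing it, and the TGFA and NRG1 values of the groups overlapped. EREG and AREG were close to 0 in every library. FPKM is the number of sequenced fragments per kilobase of gene, divided by a scaled library total, so that levels can be compared between genes.

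Of the 10 genes, 8 reached the filter of at least 1 FPKM in at least 3 of the 6 libraries and were tested with limma on log2(FPKM + 1) among 12136 genes. Of these 8, 3 (HBEGF, VEGFC and PDGFA) passed an adjusted p under 0.05 as higher, beside 0.717% of all genes tested, and 0 passed as lower, beside 0.297% of all genes tested. At an unadjusted p under 0.05, 6 of the 8 passed, beside 2942 of the 12136. The median log2 fold change of the 8 was 0.28, beside 0.04 over all genes tested. In 4 genes every TNF-α library lay above every NC library, beside 14.8% of all genes tested, and in 2 genes every TNF-α library lay below, beside 15.3%. The 10 genes were chosen with earlier results of these data known. The counts beside those of all genes tested therefore describe these genes only and do not test them as a group. Fold changes are differences in log2(FPKM + 1), which understate the change of genes with low values.

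**Figure D1:**
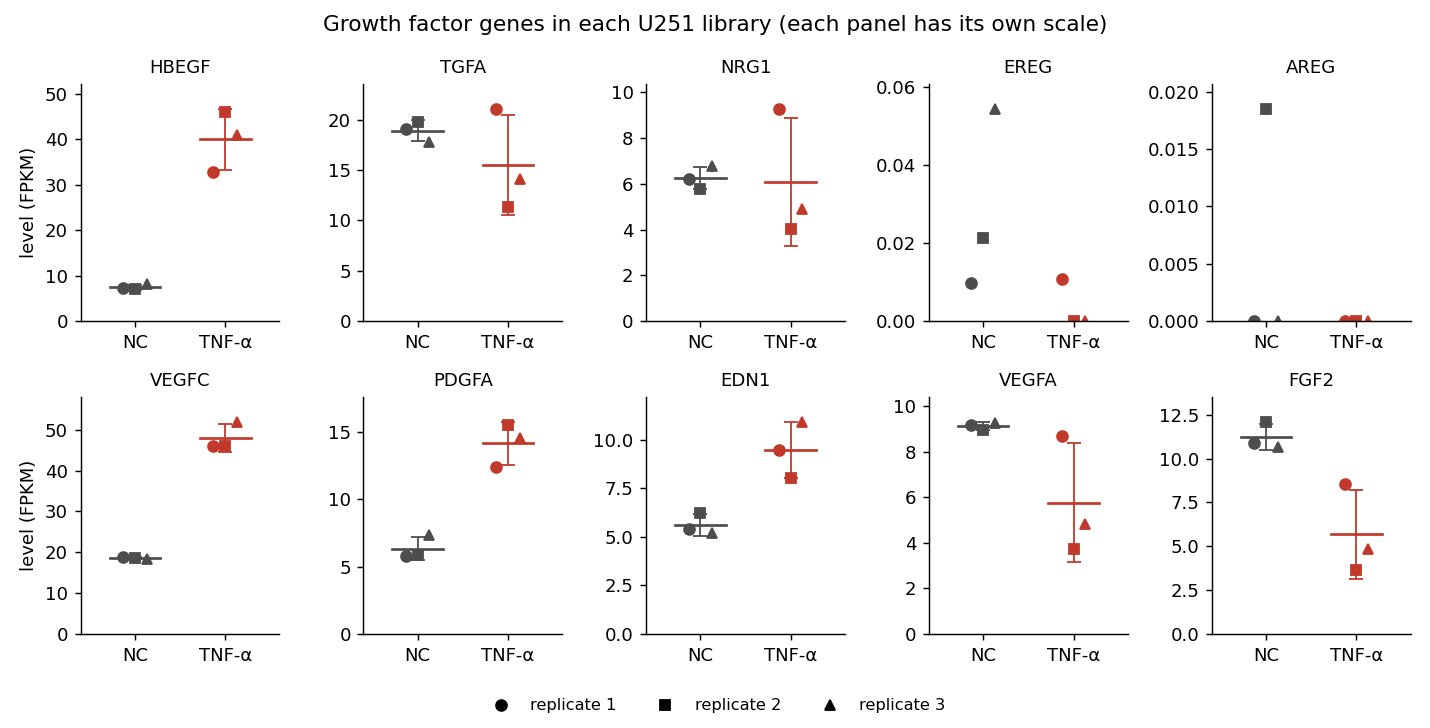
Level in FPKM (y axis, linear from 0, with its own scale in each panel) of the 10 growth factor genes in each NC (grey) and TNF-α (red) library. Bars are the group mean ± SD (n = 3), left out for EREG and AREG. The TNF-α libraries of HBEGF, VEGFC, PDGFA and EDN1 sit above every NC library, and those of VEGFA and FGF2 sit below.

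The sequences before the starts of HBEGF, VEGFC and PDGFA, which passed as higher, are shown with that of EDN1, whose TNF-α libraries also all lay above the NC libraries but which did not pass. They were taken from RefSeq (GRCh38.p14), which held a start for 8 of the 10 genes, and each runs 5′ to 3′ on the strand of its gene and stops before the first base that either RefSeq or the annotation of the files calls transcribed. Capitals mark matches, on either strand, to 6 motifs: the NF-kB motif, the GC box GGGCGG, the AP-1 motif TGANTCA, the hypoxia-response core ACGTG, the TATA box TATAAA and the cyclic AMP response element TGACGTCA. Matches to different motifs could overlap.
HBEGF, chr5:140346632-140346853: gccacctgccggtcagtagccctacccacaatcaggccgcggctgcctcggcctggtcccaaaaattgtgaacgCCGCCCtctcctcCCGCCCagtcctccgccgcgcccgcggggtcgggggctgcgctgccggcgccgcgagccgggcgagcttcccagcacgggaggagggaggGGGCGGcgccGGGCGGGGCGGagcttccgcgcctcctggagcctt
VEGFC, chr4:176792923-176793172: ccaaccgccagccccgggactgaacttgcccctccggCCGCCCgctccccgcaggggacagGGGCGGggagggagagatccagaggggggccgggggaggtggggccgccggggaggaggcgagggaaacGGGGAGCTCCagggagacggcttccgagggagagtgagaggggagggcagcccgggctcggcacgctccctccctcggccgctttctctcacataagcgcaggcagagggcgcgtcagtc
PDGFA, chr7:520297-520476: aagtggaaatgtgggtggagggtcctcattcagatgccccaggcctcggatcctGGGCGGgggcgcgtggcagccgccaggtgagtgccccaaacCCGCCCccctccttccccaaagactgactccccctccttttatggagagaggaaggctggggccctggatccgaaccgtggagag
EDN1, chr6:12290111-12290360: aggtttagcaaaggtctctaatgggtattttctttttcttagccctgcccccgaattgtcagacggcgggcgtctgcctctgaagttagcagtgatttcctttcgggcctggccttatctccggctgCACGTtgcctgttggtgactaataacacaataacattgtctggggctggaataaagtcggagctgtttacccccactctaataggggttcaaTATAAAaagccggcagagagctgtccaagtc

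Over the 250 bases before the RefSeq start, the HBEGF window had a GC content of 76.4% and 5 GC boxes, the VEGFC window 74.0% and 2, and the PDGFA window 68.8% and 4, of which the 2 nearest the start lie in the stretch that was not printed. The GC box occurred in 42.6% of the 35116 RefSeq windows of this length. The EDN1 window was of another kind, with a GC content of 49.2%, no GC box, a TATA box at -31 and an ACGTG core at -123, counted back from the RefSeq start, which are found in 10.7% and 18.5% of windows. Of these 4 genes only VEGFC held a match to the NF-kB motif, at -120, beside 9.96% of all windows. Among the other 4 genes with a RefSeq start, TGFA held an NF-kB match at -219 and 3 GC boxes, FGF2 held 3 GC boxes, AREG held a TATA box at -29, a GC box at -9 and a cyclic AMP response element at -65, and EREG held a TATA box at -32. The whole TGFA window and part of the FGF2 window lie inside the gene by the annotation of the files. RefSeq held 2 starts for TGFA, 4 for PDGFA and 3 for EDN1, and a single start of each gene was used. No window of the 8 held the AP-1 motif, which occurred in 6.57% of all windows, and the cyclic AMP response element occurred in 1.65%. A match says only that these letters occur there.

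HBEGF codes for heparin-binding EGF-like growth factor, a ligand of EGFR and ERBB4. It lies at chr5:140332843-140346631 on the minus strand (GRCh38, ENSG00000113070). Its level was 7.23, 7.08 and 8.06 FPKM in NC cells and 32.8, 46.1 and 41.0 FPKM in treated cells, given here and later in the order of replicates 1 to 3. The lowest TNF-α library was above the highest NC library by a wide margin. These levels rested on 701 to 788 reads per NC library and 3006 to 3605 reads per TNF-α library. The log2 fold change was 2.27 ± 0.16 (SE, limma adjusted p = 0.00407), with a 95% interval of 1.87 to 2.66. Leaving out any NC replicate moved the adjusted p just past the threshold, to 0.0615, 0.0605 and 0.0537 without NC replicates 1, 2 and 3, while the log2 fold change stayed between 2.23 and 2.32.

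The other EGF-family genes that were tested did not pass. TGFA (chr2:70447280-70554193, minus strand, ENSG00000163235), which codes for transforming growth factor-α, an EGFR ligand, stood at 19.1, 19.8 and 17.8 FPKM in NC cells and at 21.1, 11.3 and 14.2 FPKM in treated cells. TNF-α replicate 1 was above the NC range and TNF-α replicates 2 and 3 were below it, and the log2 fold change of -0.31 ± 0.23 (SE, limma adjusted p = 0.316) did not pass. NRG1 (ENSG00000157168) codes for neuregulin-1, a ligand of ERBB3 and ERBB4. Its level was 6.21, 5.78 and 6.77 FPKM in NC cells and 9.27, 4.04 and 4.91 FPKM in treated cells. As with TGFA, TNF-α replicate 1 was the highest of the 6 libraries and the other 2 TNF-α libraries were the lowest, with a log2 fold change of -0.10 ± 0.27 (SE, limma adjusted p = 0.771).

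EREG (epiregulin) and AREG (amphiregulin), EGFR ligands that are abundant in many epithelial tumors, were barely sampled. They lie on the same strand of one chromosome, EREG at chr4:74365143-74388751 and AREG at chr4:74445134-74455009 (plus strand, ENSG00000124882 and ENSG00000109321). EREG had 2, 4 and 10 reads in NC cells and 2, 0 and 0 reads in treated cells, at most 0.0545 FPKM. AREG had a single read, in NC replicate 2, among all 6 libraries. For AREG, 3 reads, taken here as the most that a count of 0 allows, correspond to 0.0504 to 0.0750 FPKM depending on the library. Both genes were under the filter and were not tested, and a change between these limits was not detectable at this depth. Such limits cover counting error only, since fragments carried no molecular identifiers.

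VEGFC lies at chr4:176683538-176792727 on the minus strand (ENSG00000150630). Its level was 18.8, 18.6 and 18.3 FPKM in NC cells and 46.0, 46.0 and 51.9 FPKM in treated cells. Within each group the 3 libraries were close to each other, and TNF-α replicate 1 resembled the other TNF-α libraries. The log2 fold change was 1.32 ± 0.13 (SE, limma adjusted p = 0.0112), with a 95% interval of 1.02 to 1.63. The call was lost when 1 library was left out, with adjusted p of 0.138, 0.144 and 0.141 without NC replicates 1, 2 and 3 and 0.0506 and 0.109 without TNF-α replicates 2 and 3. It was also lost under quantile normalization (adjusted p = 0.0513), limma-voom (adjusted p = 0.0606) and TPM (log2 fold change 0.83, adjusted p = 0.176), the last of which put the median of all genes tested at -0.339.

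PDGFA lies at chr7:497258-520296 on the minus strand (ENSG00000197461) and codes for the A chain of platelet-derived growth factor. Its level was 5.79, 5.87 and 7.33 FPKM in NC cells and 12.4, 15.5 and 14.5 FPKM in treated cells. The groups were apart, with the highest NC value well under the lowest TNF-α value. The log2 fold change was 1.05 ± 0.15 (SE, limma adjusted p = 0.0417), close to the threshold, with a 95% interval of 0.68 to 1.41. Without NC replicates 1, 2 and 3 the adjusted p was 0.321, 0.321 and 0.188, without TNF-α replicates 2 and 3 it was 0.169 and 0.249, and under TPM the log2 fold change was 0.58 (adjusted p = 0.176). It was also lost with weaker filters on low values (adjusted p = 0.0564 and 0.0996) and with limma-voom (adjusted p = 0.0827).

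EDN1 lies at chr6:12290363-12297194 on the plus strand (ENSG00000078401). Its level was 5.40, 6.25 and 5.21 FPKM in NC cells and 9.46, 8.03 and 10.9 FPKM in treated cells. All 3 TNF-α values were above all 3 NC values. The log2 fold change of 0.65 ± 0.15 (SE, limma adjusted p = 0.148) did not pass. EDN1 had the fewest reads of the 8 tested genes, 340 to 618 per library.

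VEGFA (chr6:43770184-43786487, plus strand, ENSG00000112715) and FGF2 (chr4:122826708-122898236, plus strand, ENSG00000138685) had lower values in every TNF-α library. VEGFA stood at 9.20, 8.94 and 9.27 FPKM in NC cells and at 8.71, 3.75 and 4.81 FPKM in treated cells. TNF-α replicate 1 was only just under the NC range, while the other 2 TNF-α libraries were far under it, and the log2 fold change of -0.65 ± 0.27 (SE, limma adjusted p = 0.195) did not pass. FGF2 stood at 10.9, 12.1 and 10.7 FPKM in NC cells and at 8.55, 3.66 and 4.83 FPKM in treated cells. Here TNF-α replicate 1 was clearly under the NC range, but less so than the other 2, and the log2 fold change was -0.94 ± 0.27 (SE, limma adjusted p = 0.195). The exons of FGF2 share 804 bases, 11.9% of their length, with NUDT6 on the opposite strand, a gene at 0.312 to 0.755 FPKM, and the use of strand in counting was not stated, so that the reads of this stretch cannot be assigned to either gene.

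**Figure D2:**
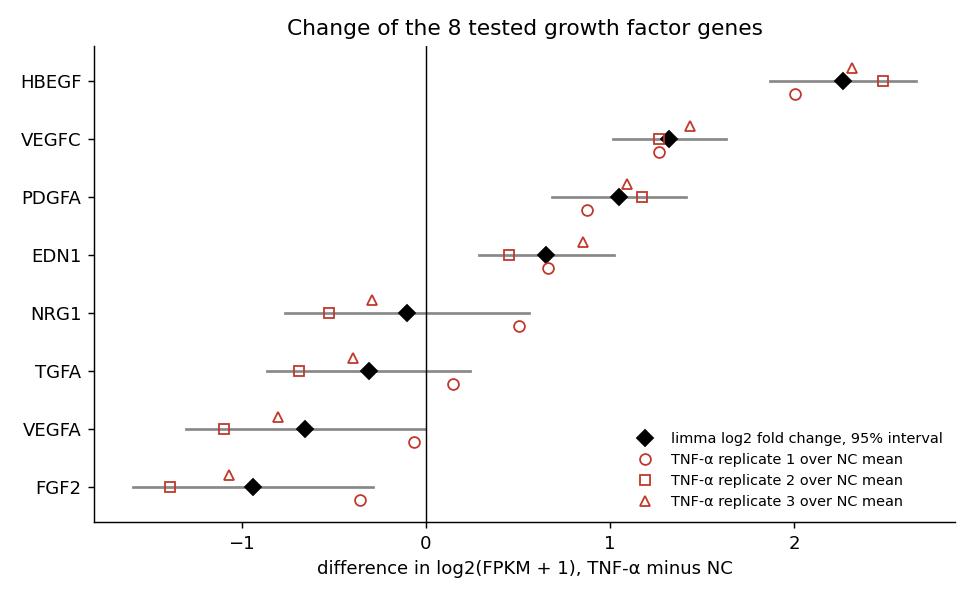
Difference in log2(FPKM + 1) between TNF-α and NC (x axis) for the 8 tested growth factor genes. Diamonds with lines are limma log2 fold changes with 95% intervals and open symbols are single TNF-α libraries over the NC mean. The 3 TNF-α libraries lie close together for HBEGF, VEGFC, PDGFA and EDN1, while replicate 1 lies to the right of the other 2 for NRG1, TGFA, VEGFA and FGF2.

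The order of the genes by level changed. In NC, TGFA (18.9 FPKM) and VEGFC (18.6 FPKM) were highest with overlapping ranges, followed by FGF2 (11.2 FPKM) and VEGFA (9.14 FPKM), each apart from its neighbours, and then by HBEGF, PDGFA, NRG1 and EDN1, each of which overlapped the next. In the TNF-α group VEGFC (48.0 FPKM) and HBEGF (40.0 FPKM) led with overlapping ranges and were apart from TGFA (15.5 FPKM) and PDGFA (14.1 FPKM). EDN1, NRG1, VEGFA and FGF2 came next, each overlapping the following one, and EREG and AREG were last in both groups.

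Because HBEGF, TGFA, VEGFC and VEGFA were measured in the same libraries, their ratios do not depend on the library total. They can still depend on gene length, which is 3.02 kb for HBEGF, 4.96 kb for TGFA, 2.42 kb for VEGFC and 14.4 kb for VEGFA. Levels moved with gene length in TNF-α replicates 2 and 3, as given below, and the part of length in these ratios was not tested. HBEGF over TGFA, a ratio of 2 EGFR ligands, was 0.377, 0.357 and 0.453 in NC cells and 1.56, 4.07 and 2.90 in treated cells. HBEGF was thus under TGFA in every NC library and above it in every TNF-α library. VEGFC over VEGFA was 2.04, 2.09 and 1.98 in NC cells and 5.29, 12.3 and 10.8 in treated cells. Both ratios were apart between the groups also in TNF-α replicate 1, which had the lowest value of the 3.

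**Figure D3:**
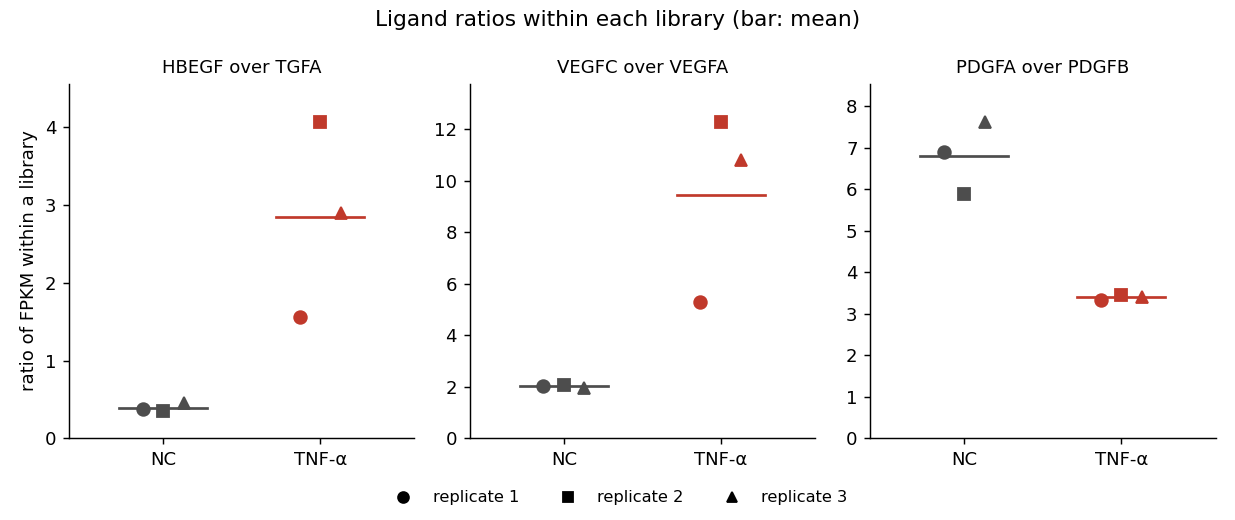
Ratio of the FPKM of 2 ligand genes within each library (y axis, linear from 0), for HBEGF over TGFA, VEGFC over VEGFA and PDGFA over PDGFB. Horizontal bars are group means (n = 3). The first 2 ratios are higher in every TNF-α library than in any NC library, and PDGFA over PDGFB is lower.

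TNF-α replicates 2 and 3 differed from the other 4 libraries in ways that bear on these genes. Depth was similar, with 31992167 to 37897044 reads in genes per library. Genes longer than 8 kb took 28.8% to 29.1% of the reads in the NC libraries and TNF-α replicate 1, but 16.6% and 17.9% in TNF-α replicates 2 and 3, and ribosomal protein genes took 2.62% to 2.90% against 7.30% and 6.26%. The median log2 ratio to the NC mean of all tested genes up to 2.5 kb long was close to 0 in TNF-α replicate 1 (-0.03) but 0.68 and 0.55 in the others, and for genes over 8 kb it was 0.00, -0.56 and -0.52. The 4 growth factor genes with the higher TNF-α values had lengths of 2.03 kb (EDN1), 2.42 kb (VEGFC), 3.02 kb (HBEGF) and 4.15 kb (PDGFA), and the other 4 had lengths of 4.96 kb (TGFA), 6.78 kb (FGF2), 11.3 kb (NRG1) and 14.4 kb (VEGFA). Gene length therefore moved with the direction of these 8 genes in TNF-α replicates 2 and 3. TGFA, however, was at -0.69 and -0.39 in TNF-α replicates 2 and 3, where the medians of genes of 2.5 to 5 kb were 0.32 and 0.28.

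In TNF-α replicate 1 taken alone, the values of the 8 genes differed in part from those of the group. The difference in log2(FPKM + 1) from the NC mean was 2.00 for HBEGF, 1.27 for VEGFC, 0.88 for PDGFA, 0.66 for EDN1 and 0.50 for NRG1. It was 0.15 for TGFA, -0.06 for VEGFA and -0.35 for FGF2. In a limma fit of the NC libraries against this library alone, which assumes that a lone library varies like the NC group, HBEGF (adjusted p = 0.000191), VEGFC (adjusted p = 0.000456), PDGFA (adjusted p = 0.0152), EDN1 (adjusted p = 0.021) and NRG1 (adjusted p = 0.038) were higher, 5 of 8 beside 3.7% of all genes tested that were higher. Without TNF-α replicate 1, in contrast, 8 of 8 passed, VEGFA, FGF2, TGFA and NRG1 as lower, beside 79.4% of all genes tested in either direction.

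After a correction of each library for GC content and gene length, HBEGF, VEGFC and PDGFA kept their calls as higher, beside 1.27% of all genes tested. HBEGF then had almost the same log2 ratio in the 3 TNF-α libraries, 2.02, 1.98 and 1.89, with a log2 fold change of 1.96 (limma adjusted p = 0.00028). PDGFA had 0.88, 0.74 and 0.73 (0.78, adjusted p = 0.0266), and VEGFC had 1.28, 0.68 and 0.95 (0.97, adjusted p = 0.0442). EDN1, which had not passed before, had 0.66, 0.07 and 0.55 (0.42, limma adjusted p = 0.179) and again did not pass. NRG1 turned from -0.10 to 0.32 (adjusted p = 0.174), FGF2 moved to -0.57 (adjusted p = 0.0848) and VEGFA to -0.39 (adjusted p = 0.184). TGFA moved only from -0.31 to -0.29 (adjusted p = 0.303).

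**Figure D4:**
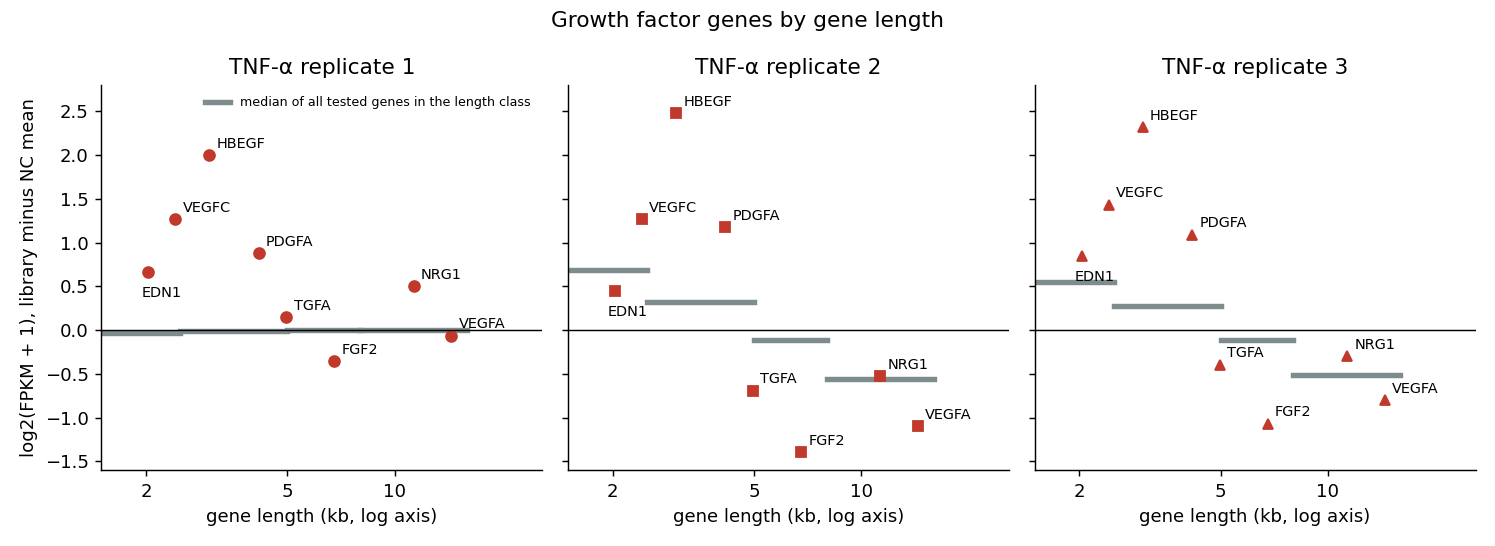
Difference in log2(FPKM + 1) from the NC mean (y axis) against gene length in kb (x axis, log scale) for the 8 tested growth factor genes in each TNF-α library. Grey bars are medians of all tested genes in 4 length classes, the shortest and longest of which are drawn only over part of their range. The bars lie near 0 in replicate 1 and fall with length in replicates 2 and 3, and HBEGF, VEGFC and PDGFA lie above them in all 3. EDN1 lies above its bar in replicates 1 and 3 and below it in replicate 2.

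Known NF-kB target genes were higher in all 3 TNF-α libraries. NFKBIA, which codes for the inhibitor IκBα, stood at a mean of 13.6 ± 0.735 FPKM in NC (SD, n = 3) and at 75.3, 118 and 112 FPKM in TNF-α (log2 fold change 2.79, limma adjusted p = 0.00415; 0.0556 to 0.0615 with 1 NC library left out). TNFAIP3, which codes for the inhibitor A20, stood at 3.44 to 4.22 FPKM and at 57.6, 18.9 and 26.8 FPKM (log2 fold change 2.70, limma adjusted p = 0.0421; up to 0.276 with 1 library left out). The glioma genes VIM, NES, SOX2 and CD44 were at 22.6 FPKM or more in every library, and S100B was at or near 0. GFAP, the astrocyte filament gene, stood at 7.10 to 9.47 FPKM in NC and at 1.58 to 2.60 FPKM in TNF-α and passed as lower (log2 fold change -1.54 ± 0.18, SE, limma adjusted p = 0.021, and -1.43 with adjusted p = 0.0246 after the GC and length correction). Its adjusted p was 0.137 to 0.166 with 1 NC library left out, and 0.0575 and 0.126 without TNF-α replicates 2 and 3. VIM, which codes for vimentin, had means of 342.8 ± 18.7 and 752.7 ± 283 FPKM in NC and TNF-α (SD, n = 3 each, log2 fold change 1.05, limma adjusted p = 0.195) and SOX2 of 62.0 ± 3.87 and 36.9 ± 18.5 FPKM (log2 fold change -0.84, limma adjusted p = 0.195), both with the groups apart and without passing. The part of these marker changes in the growth factor values was not tested. None of 7 endothelial, 6 leukocyte and microglia and 4 epithelial markers reached the filter. The highest were ESAM, an endothelial adhesion gene, at 0.37 to 0.86 FPKM, and CD14, a monocyte gene, at 0.528 to 1.55 FPKM. In bulk RNA, fewer cells that express a gene and less of its RNA per cell cannot be told apart.

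The other genes of the same pathways were read from 15 lists holding 106 genes, of which 68 were tested. The lists, too, were chosen with earlier results of these data known. In these, 2 (SDC4 and PDGFB) passed as higher, beside 0.717% of all genes tested, and 1 (PDGFRA) as lower, beside 0.297%, and the median log2 fold change was -0.07.

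None of the receptors of the EGF-family ligands passed the test. EGFR stood at 22.8, 23.6 and 24.5 FPKM in NC cells and at 30.4, 7.64 and 9.39 FPKM in treated cells, so that TNF-α replicate 1 was above the NC range and the other 2 far below it (log2 fold change -0.80, limma adjusted p = 0.238). EGFR is 12.5 kb long. ERBB2, the co-receptor without a ligand of its own, stood at 8.16 to 9.29 FPKM in NC and at 6.73 to 8.98 FPKM in TNF-α (log2 fold change -0.10, limma adjusted p = 0.603, with a 95% interval of -0.45 to 0.25). ERBB3 and ERBB4, the neuregulin receptors, were at most 0.0276 and 0.127 FPKM and were not tested. HBEGF over EGFR was 0.300 to 0.328 in NC and 1.08, 6.03 and 4.37 in the TNF-α libraries, apart in each. HBEGF is 3.02 kb long, and the part of gene length in this ratio was not tested.

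Of the other EGF-family ligands, 3 of 6 were tested (EGF, BTC and NRG2) and 0 passed. EGF stood at 4.24, 3.71 and 4.19 FPKM in NC and at 3.15, 1.14 and 1.71 FPKM in TNF-α, with the groups apart. Its log2 fold change was -0.80 (limma adjusted p = 0.195), and -0.62 (adjusted p = 0.131) after the GC and length correction. NRG2, another neuregulin, had a log2 fold change of 0.25 and BTC (betacellulin) of -0.12. Of 8 genes for the release of ligands from the membrane, 8 were tested and 0 passed, with 4 higher and 4 lower. FURIN, a proprotein convertase, had a log2 fold change of 0.24 and ADAM9, a metalloprotease, of -1.31 (limma adjusted p = 0.195), with 1 TNF-α library within the NC range. ADAM17 and RHBDF2 were chosen after their values were seen. ADAM17, the main sheddase of HBEGF and TGFA, stood at 5.13 to 5.78 FPKM in NC and at 6.31, 1.26 and 1.45 FPKM in TNF-α (log2 fold change -0.91, limma adjusted p = 0.198). RHBDF2, which codes for iRhom2, a partner of ADAM17, stood at 0.922 to 1.08 FPKM in NC and at 2.08, 2.63 and 2.33 FPKM in TNF-α (log2 fold change 0.74, limma adjusted p = 0.0611). After the GC and length correction RHBDF2 had 0.51 (limma adjusted p = 0.107).

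Downstream of the ErbB receptors, 0 of 10 tested feedback inhibitors and 0 of 10 tested output genes of the ERK pathway passed. The inhibitors had a median log2 fold change of -0.49, with 9 of 10 below 0, beside 5704 of the 12136 genes tested. In TNF-α replicate 1 alone, 6 of these 10 were above the NC mean, beside 5861 of the 12136 genes tested. The output genes had a median of 0.22, with 7 of 10 above 0, beside 6432 of the 12136. Of these output genes 9 of 10 were above the NC mean in TNF-α replicate 1, beside the same 5861. SPRY2 and SPRY4 belong to both lists. ERRFI1, an inhibitor of EGFR, had a log2 fold change of -0.18 and SPRY4, an inhibitor of the ERK pathway, of 0.43. EPHA2, an ephrin receptor, had 0.10 and CCND1, which codes for cyclin D1, had 0.35.

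In the PDGF axis a second ligand and a receptor passed the test besides PDGFA. PDGFB, the B chain, stood at 0.839, 0.997 and 0.960 FPKM in NC and at 3.71, 4.47 and 4.26 FPKM in TNF-α (log2 fold change 1.41 ± 0.12, SE, limma adjusted p = 0.00872). PDGFA was 5.89 to 7.63 times PDGFB in the NC libraries and 3.34, 3.46 and 3.41 times PDGFB in the TNF-α libraries. PDGFRA, the receptor of both chains, stood at 2.94, 2.71 and 2.75 FPKM in NC and at 0.959, 0.313 and 0.487 FPKM in TNF-α (log2 fold change -1.28 ± 0.17, SE, limma adjusted p = 0.035). Every TNF-α library was under every NC library. The adjusted p was 0.0991 to 0.106 for PDGFB and 0.241 to 0.242 for PDGFRA with 1 NC library left out, 0.0797 for PDGFB without TNF-α replicate 3, and 0.103 and 0.207 for PDGFRA without TNF-α replicates 2 and 3. PDGFB also lost its call after the GC and length correction described above (log2 fold change 0.87, limma adjusted p = 0.0857), where PDGFRA kept it (-0.89, adjusted p = 0.0191), and under TPM neither passed (adjusted p = 0.0701 and 0.0684). PDGFRA also lost its call with a pseudocount of 0.1 (log2 fold change -2.19, adjusted p = 0.0748), with limma-voom (-2.68, adjusted p = 0.0795) and with every gene above 0 in 1 library tested (adjusted p = 0.131). PDGFRB was at most 0.174 FPKM, and PDGFC, a further ligand, had a log2 fold change of -0.18 (limma adjusted p = 0.462).

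Of the VEGF receptors and neuropilins, 3 of 5 were tested and 0 passed. FLT1 and FLT4, the latter a receptor of VEGFC, were at most 0.0307 and 0.0211 FPKM, with at most 12 and 6 reads per library. KDR, the main signalling receptor of VEGFA, stood at 6.08, 6.22 and 6.64 FPKM in NC and at 5.74, 1.95 and 2.00 FPKM in TNF-α (log2 fold change -0.91, limma adjusted p = 0.195). The neuropilins, co-receptors of the VEGF family, were abundant. NRP2, which binds VEGFC, stood at 56.7 to 60.1 FPKM in NC and at 81.1, 40.2 and 41.0 FPKM in TNF-α, and NRP1 at 26.6 to 28.2 FPKM and at 31.0, 7.19 and 9.69 FPKM. Both had replicate 1 above the NC range and the other 2 TNF-α libraries below it, and their log2 fold changes were -0.18 and -1.004. VEGFB and PGF, the other VEGF-family ligands tested, had log2 fold changes of 1.09 (limma adjusted p = 0.197) and 0.45, and in TNF-α replicate 1 both were under the NC range.

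**Figure D5:**
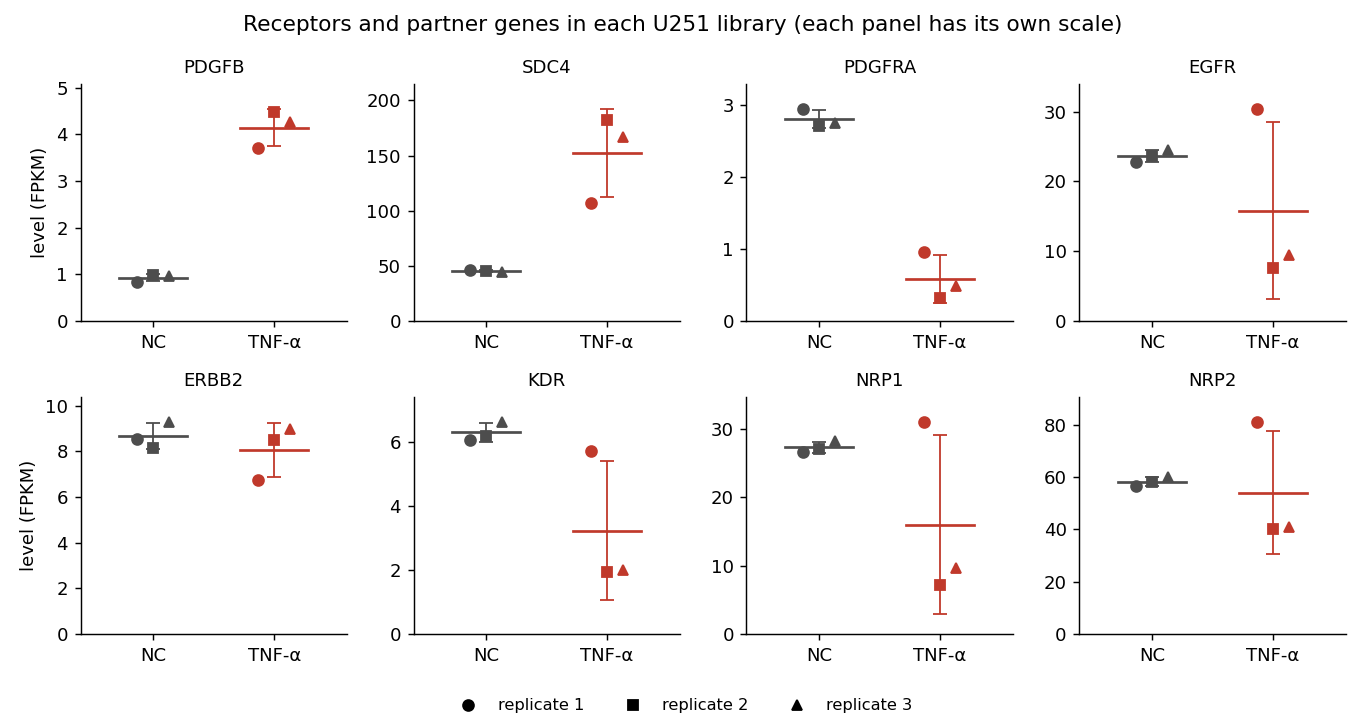
Level in FPKM (y axis, linear from 0, with its own scale in each panel) of receptors and partner genes of the growth factors in each NC (grey) and TNF-α (red) library, with the group mean ± SD (n = 3). PDGFB and SDC4 are higher and PDGFRA is lower in all 3 TNF-α libraries, while replicate 1 stands above the other 2 TNF-α libraries for EGFR, KDR, NRP1 and NRP2.

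SDC4, which codes for syndecan-4, a heparan sulfate carrier and co-receptor of FGF2, stood at 46.4, 45.3 and 44.9 FPKM in NC and at 107, 183 and 167 FPKM in TNF-α (log2 fold change 1.68 ± 0.23, SE, limma adjusted p = 0.0362). It was the only one of 8 tested FGF receptors and co-receptors to pass. Its adjusted p was 0.246 to 0.275 with 1 NC library left out, and 0.117 and 0.214 without TNF-α replicates 2 and 3. Of 17 other FGF ligands, 2 were tested. FGF5 stood at 5.09 to 5.88 FPKM in NC and at 15.3, 8.54 and 10.1 FPKM in TNF-α (log2 fold change 0.91, limma adjusted p = 0.157, and 1.23 with adjusted p = 0.00355 after the GC and length correction), and FGF1 had a log2 fold change of 0.48.

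In the endothelin system 1 of 6 genes was tested. ECE1, the enzyme that releases endothelin-1 from its precursor, stood at 33.7 to 37.1 FPKM in NC and at 45.3, 54.1 and 49.3 FPKM in TNF-α (log2 fold change 0.49, limma adjusted p = 0.195), with the groups apart. The receptors EDNRA and EDNRB were at most 0.0131 and 0.738 FPKM.

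Of 9 tested HIF target genes, a group that follows low oxygen and to which VEGFA classically belongs, 0 passed, and the median was 0.07. PGK1, a glycolytic enzyme, had a log2 fold change of 0.31 and SLC2A1, the glucose transporter GLUT1, of -0.20. Of the 9 genes 5 were higher and 4 lower, with the largest change in CA9 (1.15, limma adjusted p = 0.136, and 0.56 after the GC and length correction). Of the other angiogenic factors 0 of 4 and of the angiogenesis inhibitors 0 of 4 passed. ADM, which codes for adrenomedullin, had a log2 fold change of 0.38 and EFNA1, which codes for ephrin-A1, of 0.87. Of these factors 3 were higher and 1 lower, with the largest change in ANGPTL4 (1.22, limma adjusted p = 0.134, and 0.53 after the GC and length correction). The inhibitors were 2 higher and 2 lower. THBS1 and THBS2, which code for the inhibitory thrombospondins, had -1.47 and -0.88, and SERPINF1 and ADAMTS1 had 0.32 and 0.16. THBS1 stood at 441 to 502 FPKM in NC and at 340, 105 and 133 FPKM in TNF-α, and THBS2 in TNF-α replicate 1 was within the NC range.

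The genes whose pattern over the 6 libraries was nearest to that of a called member were found by Euclidean distance in log2(FPKM + 1) after subtracting each gene's NC mean. For HBEGF these were CD83 (distance 0.277) and IL1B (distance 0.290), the first a surface glycoprotein of antigen-presenting cells and the second the cytokine interleukin-1β. CD83 stood at 3.17, 2.78 and 2.65 FPKM in NC and at 15.2, 19.4 and 19.5 FPKM in TNF-α. For VEGFC they were DRAM1 (distance 0.0997) and NUAK2 (distance 0.121), and for PDGFA they were SLCO4A1 (distance 0.0720) and LAMB3 (distance 0.151), a chain of laminin-332. All 6 were higher in every TNF-α library, as this way of choosing them implies.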

How the data were processed

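Total RNA was extracted from U251 cells and libraries were made after poly(A) selection. The submitters' processing notes name HISAT2 2.0.5, StringTie 1.3.3b and featureCounts 1.5.0. The authors deposited FPKM, fragments per kilobase of gene relative to a scaled library total, with 1 column per library and no log transformation. All 58735 genes equalled GENCODE 29 (GRCh38) in identifier, name, position and length. The table also holds 6 per-sample columns whose names match none of the samples, and these were not used.

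Samples were grouped by their titles. Multiplying FPKM by gene length gave, for 100% of values, whole steps of 1 size per library (tolerance 0.01), and reads given in the text are these steps, 31992167 to 37897044 per library. The scaled total was 0.925 to 0.959 of the reads in the NC libraries and TNF-α replicate 1 and 0.693 and 0.759 in TNF-α replicates 2 and 3, which raises every FPKM of those 2 libraries. Genes with at least 1 FPKM in at least 3 libraries were tested on log2(FPKM + 1), a pseudocount of 1, with limma 3.58.1 in R 4.3.3 (lmFit, eBayes with trend, two-sided) and Benjamini-Hochberg adjustment over the 12136 genes. The fit was also tested on simulated data in which every library had the spread of the NC libraries. The wider spread of the TNF-α libraries was not simulated. With 3 against 3 libraries an exact permutation test of a single gene cannot go below 0.1, so none was run.

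The GC and length correction subtracted from each library a fit of natural splines (5 degrees of freedom each, with products) of GC content and log2 length. Other alternatives were 2 pseudocounts, 2 filters, TPM, quantile normalization, median centring, eBayes without a trend, a replicate block, limma-voom on the reads and leaving out each library. The fit with TNF-α replicate 1 alone was chosen after seeing the data. The members and gene lists were chosen with earlier results of these data known. Named were all members, the ErbB, VEGF, PDGF and endothelin receptors, per list the called genes (at most 3) or else the 2 of highest mean FPKM, NFKBIA and TNFAIP3, and the 2 nearest genes of each called member. Some further pathway genes were named after their values were seen. Promoter windows came from RefSeq. Figures were drawn with matplotlib 3.10.9.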

Additional observations from a re-analysis of the deposited data

How the results depend on the processing

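HBEGF passed the threshold in 16 of 19 alternatives (log2 fold change 1.78 to 2.40, adjusted p 5.87e-06 to 0.0615), VEGFC in 9 (0.83 to 1.36, up to 0.176) and PDGFA in 8 (0.58 to 1.15, up to 0.321), and all 3, like EDN1 (0.21 to 0.76), were higher in all 19. VEGFA (-1.04 to -0.06) and FGF2 (-1.34 to -0.35) were lower in all 19. Of the growth factor genes, 1 passed under TPM, 1 with limma-voom and 5 with TNF-α replicate 1 alone, and 0 to 8 with 1 library left out (8 without TNF-α replicate 1). Over all genes, 123 passed; with 1 library left out 10 to 9630 did, with the low FPKM filter removed (above 0 in 1 library) 58, with TPM 67, with quantile normalization 185, with the GC and length correction 247, with limma-voom 77 and with TNF-α replicate 1 alone 732. The median log2 fold change of all genes, 0.04 as reported, was -0.339 under TPM and -0.213 with limma-voom. The causes of these moves were not tested.

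With the replicate block 24 genes and 1 growth factor gene (HBEGF) passed, and with the block and the GC and length correction 42 and 1. Deviations of same-numbered libraries from their group means correlated at -0.0144, -0.178 and 0.124. The TNF-α libraries differed among themselves by gene length, as given above, and the NC libraries hardly did. These correlations therefore cannot decide whether the replicate numbers paired the samples.

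These genes changed sign, none of them past the threshold except where given. NRG1: 0.32 with the GC and length correction (also with the block), 0.10 without TNF-α replicate 2, 0.50 with TNF-α replicate 1 alone (adjusted p = 0.038). TGFA: 0.15 with TNF-α replicate 1 alone. TPM: NRG2 -0.19, FURIN -0.26, SPRY4 -0.045, EPHA2 -0.41, CCND1 -0.16, ECE1 -0.0046, ADM -0.067, PGK1 -0.19. Quantile normalization: FURIN -0.25, EPHA2 -0.66, CCND1 -0.25, PGK1 -0.31. GC and length correction, with and without the replicate block: NRG2 -0.19, FURIN -0.18, EPHA2 -0.39, NRP2 0.17, ADM -0.19. Limma-voom: FURIN -0.025, EPHA2 -0.17. Left-out libraries: ERBB2 0.012 without TNF-α replicate 1, BTC 0.029 without TNF-α replicate 3. TNF-α replicate 1 alone: BTC 0.36, EGFR 0.35, ERRFI1 0.33, VEGFB -0.14, PGF -0.17, NRP1 0.18, NRP2 0.47 (adjusted p = 0.0177), THBS2 0.018, PGK1 -0.068.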

Other observations

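Besides FGF5, given above, 3 pathway genes that did not pass on the deposited FPKM passed after the GC and length correction. They were picked out after their values were seen. Over all genes, 154 passed as higher and 93 as lower after the correction, of 12131 tested. ETV4, an ETS transcription factor that follows ERK activity, stood at 3.11, 2.85 and 3.23 FPKM in NC cells and at 7.02, 16.2 and 13.6 FPKM in treated cells, with a log2 fold change of 1.64 (limma adjusted p = 0.082) before and 1.07 (limma adjusted p = 0.00511) after the correction. PHLDA1, another gene of the ERK output list, stood at 18.7, 20.4 and 18.8 FPKM in NC cells and at 29.4, 24.6 and 25.0 FPKM in treated cells, with 0.43 (limma adjusted p = 0.195) before and 0.73 (limma adjusted p = 0.0289) after. FGFRL1, an FGF receptor without a kinase domain, stood at 144, 148 and 152 FPKM in NC cells and at 80.0, 94.0 and 89.3 FPKM in treated cells, with -0.75 (limma adjusted p = 0.104) before and -1.28 (limma adjusted p = 0.0288) after. In each of the 3 genes the groups were apart, as they were in 3654 of the 12136 genes tested. In the ERK output list, SPRY2 (-0.62), EPHA2 (-0.39), EPHA4 (-0.26) and DUSP4 (-0.02) were below 0 after the correction and the rest were above it. Of that list only ETV4 and PHLDA1 then passed.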
